A study of Mus musculus with 6 samples.

Results

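The 10 imprinted genes described here are H19, Igf2, Meg3, Rian, Mirg, Dlk1, Peg3, Ndn, Plagl1 and Grb10. They were taken by gene name from a count table of 55367 names, of which 31650 had a count and 16976 had enough counts to be tested, and all 10 were tested. RNA was sequenced from cortical neurons of mouse pups on the C57BL/6J background at postnatal day 1, dissociated and kept for 2 days in vitro, with 3 WT and 3 Fmr1-KO libraries. Fmr1-KO mice lack FMRP, the RNA-binding protein that is absent in fragile X syndrome, in every cell; WT mice carry the intact gene, and no treatment was given to either genotype. The sources used here do not state the sex or litter of the pups, or whether pups were pooled. The study describes the triplicates as independently obtained, while the labels give only replicate numbers. Per its methods, the dissociated cells were passed through a strainer that holds back blood vessels, and astrocytes carrying ACSA2 and myelin were removed with antibody-coated beads before plating.

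An imprinted gene is transcribed mainly from the copy inherited from 1 parent. The choice is set by DNA methylation laid down in the egg or the sperm at an imprinting control region, and neighbouring genes of a cluster are often expressed from opposite parental copies. Paternally expressed genes often promote fetal growth, and many imprinted genes are abundant in the developing brain. Here H19, Meg3, Rian and Mirg, all long non-coding RNAs, were taken as maternally expressed. Igf2, Dlk1, Peg3, Ndn and Plagl1, all protein-coding, were taken as paternally expressed. Grb10 was kept apart because it is expressed from the maternal copy in most tissues and from the paternal copy in neurons. These parental assignments are background: the counts do not separate the 2 alleles. Whether the assignment of any of these genes holds in every cell type of the culture was not checked.

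All 4 non-coding members are hosts of microRNAs. RefSeq places 1 hairpin in an exon of H19 (miR-675), 1 in an exon of Meg3 (miR-770), 3 in introns of Rian and 14 within Mirg. Those of Mirg alone give 26 mature microRNAs with 25 different seeds. The mature miR-1906 also lies in an exon of Meg3, with no hairpin found within the gene. Igf2 also holds 1 hairpin, miR-483, in an intron. The mature sequences below (RefSeq, GRCm38.p6, 5′ to 3′) show 1 or more microRNAs for each non-coding host, with the seed, bases 2 to 8, in capitals. The pair from H19 comes from the 2 arms of 1 hairpin, and miR-453 and miR-496a-5p are shown because they were the only microRNAs among these hosts to share a seed.
miR-675-5p (H19): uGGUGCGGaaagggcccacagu
miR-675-3p (H19): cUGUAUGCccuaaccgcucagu
miR-770-5p (Meg3): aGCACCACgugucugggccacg
miR-370-3p (Rian): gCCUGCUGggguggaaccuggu
miR-134-5p (Mirg): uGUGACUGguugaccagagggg
miR-453 (Mirg): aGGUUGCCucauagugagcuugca
miR-496a-5p (Mirg): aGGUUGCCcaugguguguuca

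The libraries were made from polyadenylated RNA and did not measure these mature microRNAs. Of the 90 microRNA and small nucleolar RNA names in the cluster that runs from Dlk1 to Dio3, 34 had a count, with 183 counts in all 6 libraries together, and 0 passed the filter on low counts. Changes in the host RNAs below therefore say nothing of the microRNAs.

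Promoter windows from RefSeq, from 250 bases before a start to 50 bases after it, were found for 9 of the 10 genes, 14 windows in all. The exception was H19. The hexamer TGCCGC, the motif bound by ZFP57, which keeps methylation at imprinting control regions, was searched on both strands, so that it also reads GCGGCA. It was present in 4 of the 14 windows, 1 each for Igf2, Plagl1, Grb10 and Meg3, and in 11.6% of the 32851 windows of all genes. The octamer TGACGTCA, the cyclic AMP response element, reads the same on both strands and does not overlap the hexamer. It was chosen after the Meg3 window below had been seen, and was present in 1 window each of Meg3 and Peg3 and in 1.79% of all windows. A match is a description of the letters in a window and not evidence of binding. The windows of a maternally expressed gene that fell (Meg3, chr12:109540746-109541045, plus strand) and of a paternally expressed gene that rose (Plagl1, chr10:13090582-13090881, plus strand) are shown in GRCm38.p6 with both motifs in capitals.
Meg3: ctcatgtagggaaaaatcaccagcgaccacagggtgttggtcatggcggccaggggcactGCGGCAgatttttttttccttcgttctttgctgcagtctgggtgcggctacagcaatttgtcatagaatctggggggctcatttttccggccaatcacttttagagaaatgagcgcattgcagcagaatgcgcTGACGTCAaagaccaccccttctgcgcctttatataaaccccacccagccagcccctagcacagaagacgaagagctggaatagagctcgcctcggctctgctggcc
Plagl1: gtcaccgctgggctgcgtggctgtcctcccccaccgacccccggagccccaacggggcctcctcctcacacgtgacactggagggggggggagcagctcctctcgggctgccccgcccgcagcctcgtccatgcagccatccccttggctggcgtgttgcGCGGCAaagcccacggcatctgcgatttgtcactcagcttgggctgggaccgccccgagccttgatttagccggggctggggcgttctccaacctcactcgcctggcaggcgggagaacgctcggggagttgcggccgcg

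The Meg3 window shown held 13 CpG dinucleotides and the Plagl1 window 26, against a median of 7 over all windows. Of all windows, 37.9% held at least as many as this Meg3 window and 16.9% at least as many as Plagl1. Lower numbers were 1 in the other Meg3 window, 2 in the first Igf2 window and 0 in the Rian window. The first Grb10 window held 45, a number reached by 1.93% of windows. DNA methylation was not measured.

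Total counts ran from 30348556 to 35126207 per library. Fmr1 itself had a log2 fold-change of -0.98 (SE 0.04) in Fmr1-KO relative to WT mice, with an adjusted P of 2.25e-13 by edgeR, and its remaining reads made up 50.6% of the WT level. Values are counts divided by library size (CPM), the size being scaled by the trimmed mean of M-values (TMM). Each adjusted P comes from the quasi-likelihood test of edgeR, 2-sided and adjusted over all 16976 genes by the Benjamini-Hochberg method, and called genes are those at which it was under 0.05. Errors of CPM are SD with n = 3.

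Among the 10 genes, 3 were lower, 5 were higher and 2 were not called in Fmr1-KO relative to WT mice, while 42.6% of all tested genes were called, 21.9% lower and 20.7% higher. The CPM of the genotypes did not overlap for 8 of the 10 genes, against 51.7% of all tested genes. The called changes followed the parental class, which in these genes cannot be told apart from RNA type. The maternally expressed genes are all long non-coding RNAs and the paternally expressed genes are all protein-coding. Meg3, Rian and Mirg also lie in the same cluster. Of the 4 maternally expressed genes 3 fell and 0 rose, with a median log2 fold-change of -0.26, and of the 5 paternally expressed genes 4 rose and 0 fell, with a median of 0.44. The difference between the medians was -0.70, and the median over all tested genes was 0.01. Because these genes were chosen with results known, no test was made of the classes.

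**Figure D1:**
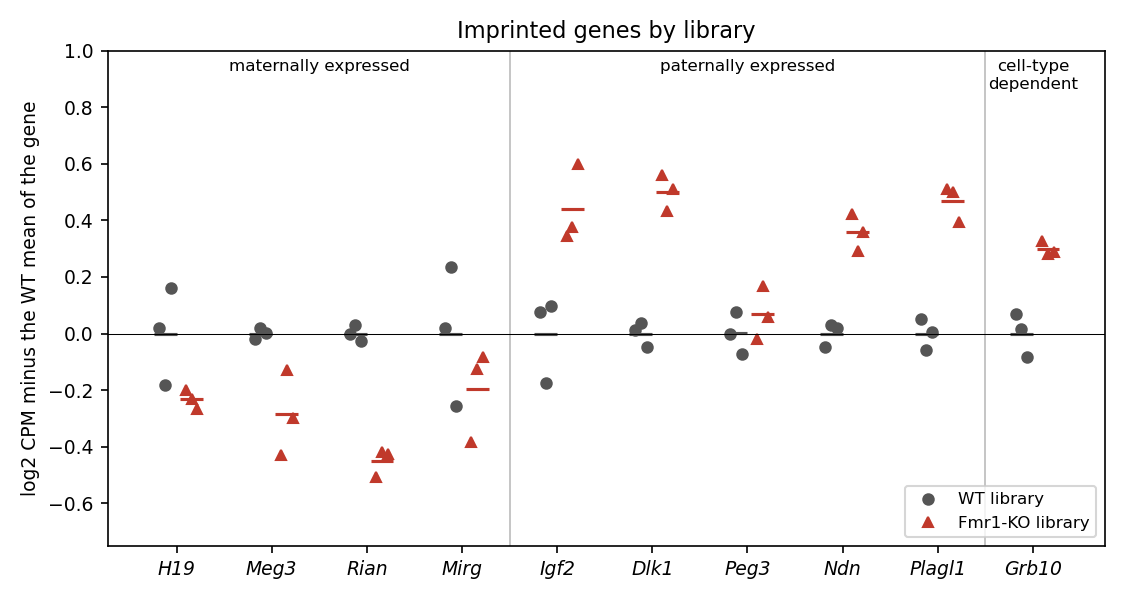
Log2 CPM of each gene in each library minus the mean of its WT libraries (y axis), for maternally expressed genes, paternally expressed genes and Grb10; circles are WT libraries, triangles Fmr1-KO libraries and bars genotype means. The triangles of H19, Meg3 and Rian lie below their own circles, those of Igf2, Dlk1, Ndn, Plagl1 and Grb10 lie above, and those of Mirg and Peg3 overlap.

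The shift of the class medians was present in every Fmr1-KO library, though Peg3 was at -0.019 in Fmr1-KO replicate 1. The median log2 difference from the WT mean over the 4 maternally expressed genes was -0.41, -0.18 and -0.28 in Fmr1-KO replicates 1, 2 and 3, and over the 5 paternally expressed genes it was 0.42, 0.38 and 0.39. The WT libraries lay between -0.01 and 0.03 for both classes, a closeness that is partly built in because the WT mean of each gene was subtracted. Single genes spread more widely in WT, H19 from -0.181 to 0.162 and Mirg from -0.256 to 0.237. The summed CPM of the maternally expressed genes ran from 1250 to 1270 in WT and from 944 to 1080 in Fmr1-KO, and that of the paternally expressed genes from 325 to 335 in WT and from 396 to 409 in Fmr1-KO.

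Meg3 and Rian are parts of the maternally expressed non-coding transcription of the Dlk1-Dio3 cluster on chromosome 12. Meg3 (109541001 to 109571726, plus strand of chromosome 12 in GRCm38) encodes a nuclear long non-coding RNA that is abundant in neurons. It had 24433, 23889 and 23801 counts in WT and 17226, 19972 and 20178 counts in Fmr1-KO, which gave 703, 723 and 713 CPM in WT and 530, 652 and 580 CPM in Fmr1-KO. The genotypes did not overlap, and the Fmr1-KO libraries were the lower and the more widely spread. Its mean fell from 713 ± 9.80 to 587 ± 61.7 CPM, with a log2 fold-change of -0.28 (SE 0.05, adjusted P 5.58e-05 by edgeR). Left out in turn, Fmr1-KO replicates 2 and 1 gave the ends of the range of this value, -0.36 and -0.21.

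Rian (109603940 to 109661716, plus strand of chromosome 12), a long non-coding RNA that also hosts many small nucleolar RNAs, had the largest fall of the 10 genes. Its CPM was 341, 349 and 335 in WT and 240, 256 and 254 in Fmr1-KO, and replicates of a genotype lay close together. Rian was left at 73.2% of its WT mean, a log2 fold-change of -0.45 (SE 0.03) at an adjusted P of 2.16e-10 by edgeR.

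Mirg (109729764 to 109749460, plus strand of chromosome 12), the host of the microRNA cluster shown above, was much less abundant than Meg3 and Rian. It had 281, 311 and 223 counts in WT and 199, 224 and 262 counts in Fmr1-KO, or 8.08, 9.41 and 6.68 CPM against 6.12, 7.32 and 7.53 CPM. The genotypes overlapped because WT replicate 3 lay below 2 of the Fmr1-KO libraries. Its log2 fold-change was -0.20 (SE 0.11), which did not pass the threshold (adjusted P 0.153 by edgeR). Without WT replicate 3 the value was -0.32 and passed it (edgeR adjusted P 0.0209), while without WT replicate 2 it was -0.08 (adjusted P 0.605 by edgeR).

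Dlk1 (109452823 to 109463336, plus strand of chromosome 12), the paternally expressed gene of the same cluster, encodes a transmembrane protein related to Notch ligands that acts in growth and in neural progenitors. It had 188, 182 and 173 counts in WT and 257, 222 and 266 counts in Fmr1-KO. In CPM these were 5.41, 5.50 and 5.18 against 7.90, 7.25 and 7.65, with no overlap. Dlk1 rose by 0.50 on the log2 scale (SE 0.09, adjusted P 0.000117 by edgeR). Plagl1 and Igf2, described below, rose by similar amounts. Dio3, a paternally expressed enzyme gene at the far end of the cluster that inactivates thyroid hormone, was not called at a log2 fold-change of 0.30 and an edgeR adjusted P of 0.055.

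H19 (142575529 to 142578143, minus strand of chromosome 7) is a long non-coding RNA of fetal tissues and shares an imprinting control region with Igf2. It had 6779, 5616 and 7192 counts in WT and 5458, 5020 and 5562 counts in Fmr1-KO. In CPM these were 195, 170 and 216 against 168, 164 and 160. The WT libraries were the more widely spread, and the lowest of them lay just above the highest Fmr1-KO library. H19 fell from 193 ± 22.9 to 164 ± 3.99 CPM, with a log2 fold-change of -0.24 (SE 0.05, adjusted P 0.00109 by edgeR). Without WT replicate 3 the value was -0.16 and without WT replicate 2 it was -0.33. The highest adjusted P over all alternatives was 0.0433, from DESeq2.

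Igf2 (142650766 to 142666816, minus strand of chromosome 7) encodes insulin-like growth factor 2, a fetal growth factor. It had 119, 95 and 116 counts in WT and 134, 129 and 171 counts in Fmr1-KO, or 3.42, 2.87 and 3.48 CPM against 4.12, 4.21 and 4.91 CPM. The genotypes did not overlap, and Fmr1-KO replicate 3 was the highest. Igf2 rose by a log2 fold-change of 0.44 (SE 0.12, adjusted P 0.00602 by edgeR), and by 0.35 without Fmr1-KO replicate 3 (adjusted P 0.0476 by edgeR). In the annotation used here 62.8% of the exon length of Igf2 is shared with another gene name on the same strand, Gm49394, which had 12 counts in all 6 libraries. Reads that overlap both names are left out by the counting program unless it is told otherwise, so the level of Igf2 may be understated.

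The neighbouring genes of opposite parental class were compared within each library, where differences in depth cancel. There were 57.0, 59.1 and 62.0 H19 reads for each Igf2 read in WT and 40.7, 38.9 and 32.5 in Fmr1-KO, so that the ratio fell to 62.7% of its WT value. There were 130, 131 and 138 Meg3 reads for each Dlk1 read in WT and 67.0, 90.0 and 75.9 in Fmr1-KO, or 58.0% of the WT ratio. The genotypes did not overlap in either ratio. On the log2 scale the ratios differed by -0.67 and -0.79. Among the non-coding genes of the cluster, the ratio of Rian to Meg3 was 0.485, 0.483 and 0.470 in WT and 0.454, 0.392 and 0.438 in Fmr1-KO, a log2 difference of -0.17. That value was -0.10 without Fmr1-KO replicate 2 and -0.21 without Fmr1-KO replicate 1. The ratio of Mirg to Meg3 differed by 0.09 on the log2 scale and overlapped between genotypes. An exact permutation test of 3 against 3 libraries, 2-sided, cannot give a P below 0.1, which the first 3 ratios reached (0.133 after Benjamini-Hochberg adjustment over 4 ratios), and the exact P for Mirg over Meg3 was 0.7.

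**Figure D2:**
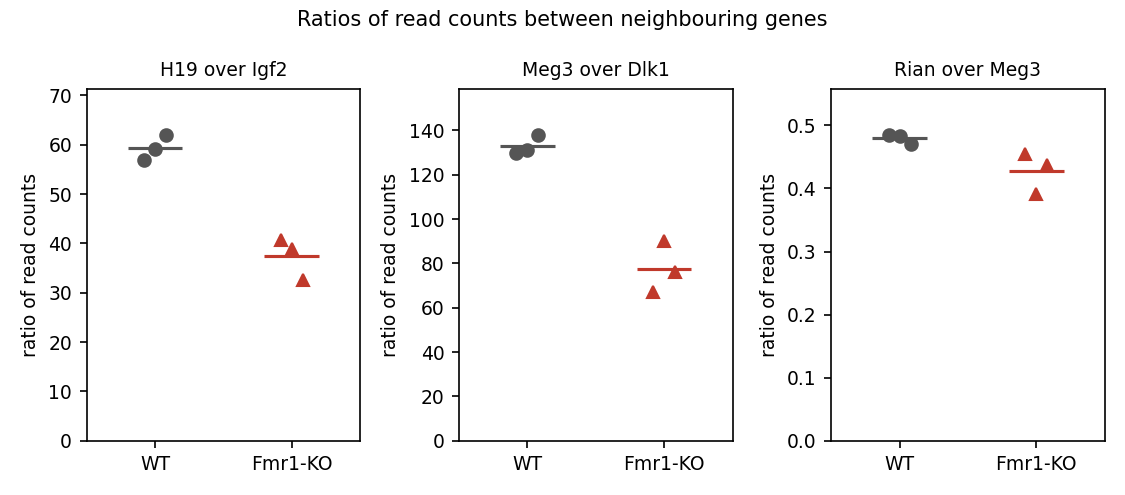
Ratio of read counts in each library (y axis, from 0) for H19 over Igf2, Meg3 over Dlk1 and Rian over Meg3, with WT as circles, Fmr1-KO as triangles and means as bars. H19 over Igf2 runs from 57.0 to 62.0 in WT and from 32.5 to 40.7 in Fmr1-KO, and Meg3 over Dlk1 from 130 to 138 and from 67.0 to 90.0.

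The other paternally expressed genes lie at separate loci. Plagl1 (chromosome 10, 13060504 to 13131694, plus strand) encodes a zinc finger transcription factor that controls other imprinted genes. Its CPM was 93.7, 86.9 and 90.7 in WT and 129, 128 and 119 in Fmr1-KO, with no overlap. Plagl1 rose by a log2 fold-change of 0.47 (SE 0.04, adjusted P 2.77e-09 by edgeR).

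Ndn (chromosome 7, 62346569 to 62350262, plus strand) encodes necdin, a growth suppressor of postmitotic neurons in the region that corresponds to the Prader-Willi locus. Its CPM was 98.9, 104 and 104 in WT and 137, 125 and 131 in Fmr1-KO, again with no overlap. It rose by a log2 fold-change of 0.36 (SE 0.04, adjusted P 8.45e-08 by edgeR). The other paternally expressed genes tested in this region moved in both directions. Magel2, a relative of Ndn, fell by 0.54 on the log2 scale (adjusted P 0.00727 by edgeR), a call that was lost without Fmr1-KO replicate 3 (-0.41, edgeR adjusted P 0.0551). Snrpn, which encodes a splicing protein, fell by 0.42 (adjusted P 5.39e-09 by edgeR). Peg12 rose, at a log2 fold-change of 0.20 (edgeR adjusted P 0.033), and Mkrn3 and Snhg14 were not called, at -0.11 and -0.05 (edgeR adjusted P 0.294 and 0.469).

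Peg3 (chromosome 7, 6703892 to 6730431, minus strand), a zinc finger gene, was the 1 paternally expressed gene of the 5 that was not called. Its CPM was 128, 135 and 122 in WT and 127, 144 and 133 in Fmr1-KO, and the genotypes overlapped. Its log2 fold-change, 0.07 (SE 0.04), missed the threshold at an adjusted P of 0.209 by edgeR and stayed between 0.02 and 0.11 when each library was left out in turn.

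Grb10 (chromosome 11, 11930508 to 12038683, minus strand) encodes an adaptor protein that restrains insulin and IGF receptor signalling. Its CPM was 120, 115 and 108 in WT and 143, 138 and 139 in Fmr1-KO, with no overlap. Grb10 rose by a log2 fold-change of 0.30 (SE 0.04, adjusted P 1.18e-06 by edgeR). Counted among the paternally expressed genes, it moved their median from 0.44 to 0.40.

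Levels of different genes were compared per kilobase of exon (RPKM, from CPM and the union of annotated exons). In WT the order was H19 at 78.6, Meg3 at 39.4, Ndn at 27.7, Rian at 18.7, Grb10 at 12.5, Plagl1 at 11.6, Peg3 at 9.63, Mirg at 1.11, Dlk1 at 0.949 and Igf2 at 0.569 RPKM. The libraries of neighbours in this order did not overlap, except Grb10 with Plagl1 and Mirg with Dlk1. In Fmr1-KO, Ndn at 35.5 RPKM overlapped Meg3 at 32.5, Plagl1 at 16 overlapped Grb10 at 15.4, and both of the latter stood above Rian at 13.7. Over its unshared exon length alone Igf2 would be at 1.53 RPKM in WT and 2.08 in Fmr1-KO, above Mirg and Dlk1.

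By calls and medians, the wider set of imprinted genes did not divide in the same way. Of 58 other imprinted genes, 49 were tested, 12 were lower and 8 were higher (40.8% called, near the 42.6% of all genes), and their median log2 fold-change was -0.03. Among the 19 tested maternally expressed ones 4 were lower and 2 higher, with a median of -0.05. Among the 28 tested paternally expressed ones 7 were lower and 6 higher, with a median of 0.04. Summed CPM, which weighs abundant genes most, was 95.5% of WT for the other maternally expressed genes and 107% for the other paternally expressed genes. These compare with 80.3% and 122% for the genes described here, and the genotypes overlapped in neither sum of the wider set. The parental classes of the wider set are also background, and whether each gene is imprinted in cortical neurons was not checked. Whether the 10 genes differ from this wider set was not tested.

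The largest fall in the wider set was that of Kcnk9. Kcnk9, a maternally expressed potassium channel gene, fell from 51.3 ± 1.41 to 15.3 ± 0.880 CPM (log2 fold-change -1.74, SE 0.05, adjusted P 7.99e-16 by edgeR). Cobl, an actin nucleator taken as maternally expressed, fell by 0.61 on the log2 scale, and Ddc, the enzyme that makes dopamine and serotonin, fell by 0.72. Nap1l5, paternally expressed in brain, fell by 0.41. In the other direction, Zdbf2 rose by 0.47 and Mest, a paternally expressed gene of fetal growth, rose by 0.43, from 108 ± 5.54 to 146 ± 3.72 CPM. None of these 6 genes overlapped between genotypes.

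**Figure D3:**
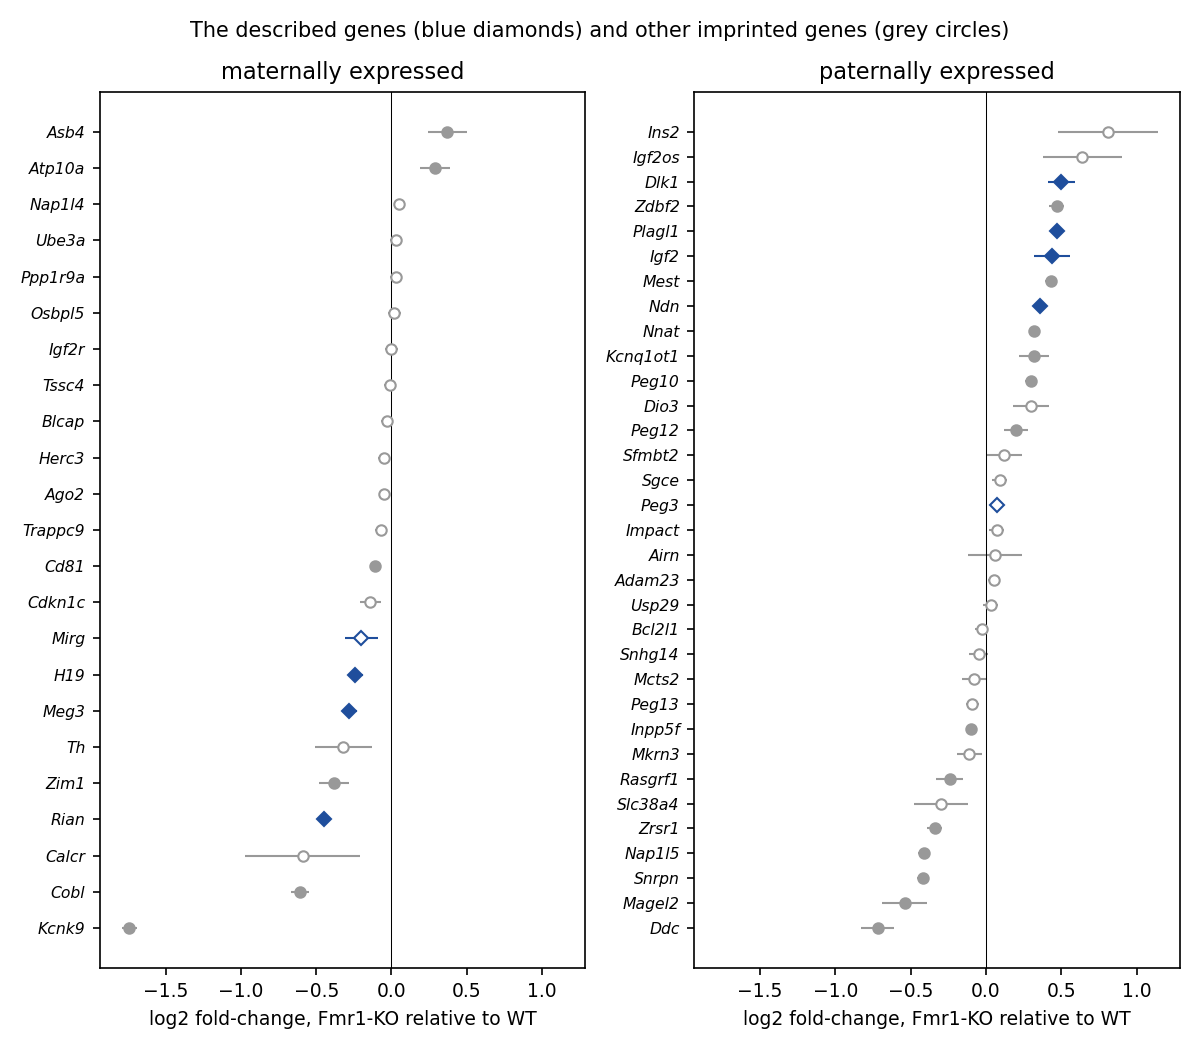
Log2 fold-change in Fmr1-KO relative to WT (x axis, bars are SE) for tested maternally expressed (left) and paternally expressed (right) imprinted genes; blue diamonds are the genes described here, grey circles the other imprinted genes, and filled symbols passed the threshold. The diamonds lie between -0.45 and -0.20 on the left and between 0.07 and 0.50 on the right, while the circles spread to both sides of 0 in both panels.

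Igf2 acts through receptors and binding proteins, and 20 of 22 genes of the IGF axis, Igf2 included, were tested: 4 were lower and 7 higher, with a median log2 fold-change of 0.01. These are 20% lower and 35% higher, beside 21.9% and 20.7% of all tested genes. Igf1, the other IGF ligand, fell from 25.3 ± 0.981 to 12.6 ± 1.19 CPM (log2 fold-change -1.0, SE 0.07, adjusted P 1.51e-10 by edgeR), opposite in direction to Igf2. The receptor genes Igf1r, at 0.03 on the log2 scale (edgeR adjusted P 0.569), and Igf2r, at 0.00 (edgeR adjusted P 0.985), were not called. The binding protein genes Igfbp5 and Igfbp2, whose products hold IGFs outside the cell, rose by 0.50 and 0.46, and Igfbp5 reached 1010 ± 19.9 CPM from 716 ± 17.5. Igfbp3 fell by 0.15 (adjusted P 0.00608 by edgeR), and Igfbp4, Igfbp6 and Igfbp7 were not called, at -0.05, 0.07 and 0.02. The mRNA-binding proteins of the Igf2bp family also rose, Igf2bp1 by 0.52 and Igf2bp3 by 0.24.

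Of 25 genes that set, keep or read imprints, 22 were tested, 13 were higher and 2 were lower, and the median log2 fold-change was 0.12. These are 59.1% higher and 9.09% lower, beside 20.7% and 21.9% of all tested genes. Uhrf1 and Dnmt1, which copy DNA methylation after replication, rose by 0.58 and 0.30. Ezh2, the histone H3 lysine methyltransferase of Polycomb, rose by 0.50, and Zfp57 rose by 0.25, from 126 ± 6.38 to 151 ± 11.4 CPM. Atrx, a chromatin remodeller, overlapped between genotypes at a log2 fold-change of 0.29 (edgeR adjusted P 0.0132), and was not called by DESeq2 (adjusted P 0.268) or without Fmr1-KO replicate 2 (0.16, edgeR adjusted P 0.141), WT replicate 1 (0.22, 0.0944) or WT replicate 3 (0.21, 0.0759). Uhrf1, Dnmt1 and Ezh2 are also abundant in dividing cells, and 10 of 10 markers of proliferating cells rose, with a median of 0.66. The part of dividing cells in these values was not tested.

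Genes that flank the members were also counted. Within 500 kb of a member, and outside the imprinted lists used here, 38 of 262 named genes were tested: 9 were lower and 8 higher, with a median of 0.04. Whether any of these flanking genes is itself imprinted was not checked. The share called was 44.7%, near the 42.6% of all tested genes. By locus, 3 of 9 tested genes around H19 and Igf2 were lower and 2 higher, 4 of 11 around Peg3 were lower and 0 higher, and 2 of 9 around Plagl1 were higher and 0 lower. Around Ndn, all 3 tested genes were higher, among them A330076H08Rik at 0.63, while 1 of the 2 tested around the Dlk1 cluster was lower. Around Grb10 1 of 4 was lower and 1 higher, the latter Fignl1, a DNA repair gene, at 0.54. Tnnt3 and Trpm5, near H19 and Igf2, had log2 fold-changes of 0.62 and 0.54 at about 1 CPM, and were not called by DESeq2 (adjusted P 0.124 and 0.185). Trpm5 also lost its call without any 1 of the 6 libraries (edgeR adjusted P 0.0568 to 0.0955) and with no filter (0.0593), and Tnnt3 lost it when Fmr1-KO replicate 3 (0.0767) or WT replicate 3 (0.137) was left out. These are the 2 genes counted as higher around H19 and Igf2.

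The genes whose log2 CPM followed a member most closely over the 6 libraries are given as a description, since the libraries share their genotype difference. For Igf2 these were Crtc3, Hnrnpd and Rell1 (Pearson r 0.998, 0.995 and 0.991), and for Meg3 they were Sema3e, Zrsr2 and Larp4b (0.991, 0.991 and 0.989).

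Markers of the cells in such a culture moved with genotype, and in bulk RNA fewer cells of a type and less RNA per cell cannot be told apart. The neuronal markers were abundant, but so were those of astrocytes: the 8 astrocyte markers summed to 4840 to 4950 CPM in WT, and Gfap, at 2650 CPM, was above each of the 12 neuronal markers. Of the neuronal markers, 10 of 12 were lower and 2 higher, with a median log2 fold-change of -0.64. Beside these and the marker counts below, 21.9% of all tested genes were lower and 20.7% higher. Their summed level ran from 5340 to 5480 CPM in WT and from 4500 to 4710 CPM in Fmr1-KO, or 84.8% of WT, beside 80.3% for the maternally expressed imprinted genes. Neural progenitor markers were higher in 6 of 10 cases and lower in 0, and their sum was 115% of WT, beside 122% for the paternally expressed genes. Sums weigh the abundant genes most, and the medians lay further apart. The neuronal median of -0.64 stood beside -0.26 for the maternally expressed genes, and the progenitor median of 0.21 beside 0.44 for the paternally expressed genes.

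Markers of epithelial, connective and vascular cells were also present. Choroid plexus markers, from an epithelium that expresses Igf2 strongly, were higher in 7 of 8 cases, and their sum ran from 1060 to 1120 CPM in WT and from 1470 to 1770 CPM in Fmr1-KO. Ttr, the defining marker of that epithelium, was at 1030, 984 and 973 CPM in WT and 1640, 1350 and 1620 CPM in Fmr1-KO. Fibroblast and meningeal markers summed to 491 to 534 CPM in WT and 502 to 546 CPM in Fmr1-KO, with 5 of 12 lower and 3 higher. The median of this list was -0.07, and its members ran from Slc6a13 at -0.66 to Ogn at 0.88, with the collagen gene Col1a1 at -0.28. Mural markers were lower in 4 and higher in 4 of 9 cases. Their median log2 fold-change was -0.64, while their sum was at 151% of WT, since the abundant contractile genes Acta2 (176 to 322 CPM) and Tagln (83.1 to 134 CPM) rose. Endothelial markers were lower in 1 and higher in 2 of 6 cases (50% called, near the 42.6% of all tested genes), with a median of 0.12. Their sum was at 162% of WT but at most 25 CPM. Kdr, a receptor of vascular growth factor, made up most of it in Fmr1-KO (17.1 CPM of sums from 22.9 to 25 CPM). In WT, Kdr was at 7.27 CPM, beside sums from 12.9 to 16.9 CPM.

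Of the glial lists, astrocyte markers were lower in 5 and higher in 1 of 8 cases (88.7% of WT), oligodendrocyte lineage markers were lower in 8 of 8 (61.8%) and microglial markers in 7 of 8 (57.2%). Erythroid markers were lower in 2 of 2 tested, with a sum of at most 2.34 CPM, and Hbb-y was at 0 in all libraries. The part of any of these cell types in the changes of the imprinted genes was not tested.

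**Figure D4:**
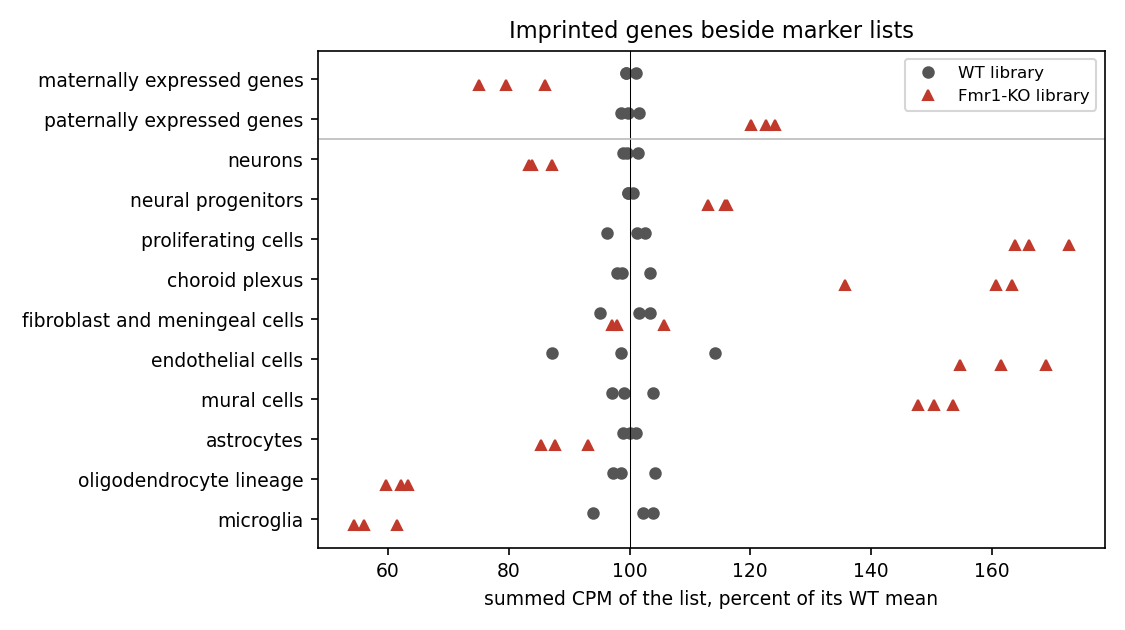
Summed CPM of each gene list in each library as a percent of the mean of its WT libraries (x axis), with WT as circles and Fmr1-KO as triangles; the top rows are the imprinted genes by parental class and the rows below them markers of cell types. The maternally expressed genes average 80.3% of WT in Fmr1-KO, beside 84.8% for neuronal markers, and the paternally expressed genes 122%, beside 115% for neural progenitor and 153% for choroid plexus markers. The median log2 fold-changes were -0.26 beside -0.64, and 0.44 beside 0.21 and 0.56, in the same order.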

How the data were processed

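The authors deposited raw counts per gene for 3 WT and 3 Fmr1-KO libraries, made, per their methods, from stranded polyadenylated RNA with STAR and featureCounts on exons by gene name. Genotype and replicate came from the labels. Replicates differed by more than counting noise (chi-square per degree of freedom 2.19 to 3.73), so each counted once. Tests used edgeR 4.0.16 in R 4.3.3 (filterByExpr, TMM, glmQLFit, glmQLFTest, genotype as the only term), and SE is the log2 fold-change divided by the square root of F. CPM and RPKM were computed here. Exact tests used scipy 1.17.1. Coordinates and exon lengths are from GENCODE M21 (GRCm38), an earlier release than the authors' own, which held 98.6% of tested names.

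The members, the lists and the rule for named genes were chosen with earlier results of these data known. Named are all 10 members, Fmr1 and, among called genes of at least 1 CPM, the largest changes: 8 other imprinted genes, 5 each of the IGF axis and imprint regulators and 4 flanking genes. For Igf2 and Meg3 the 3 most correlated genes of at least 10 CPM were added. Dio3, Igf1r, Igf2r, Igfbp3, Igfbp4, Igfbp6, Igfbp7, Peg12, Mkrn3, Snhg14, Dnmt3a, Yy1 and the single cell markers were named after their values had been seen. Alternatives were DESeq2 1.42.0, scaling by RLE, by upper quartiles or by totals only, dropping the filter or raising it to 10 counts and 5 CPM on average, the replicate number as a block, omitting each library, and other classes for Grb10. The test was tried on simulated data first.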

Additional observations from a re-analysis of the deposited data

How the results depend on the processing

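Of 424 recomputed values of single genes, 407 changed neither sign nor call, 16 lost the call and 1, Mirg, gained it. Magel2 lost its call without Fmr1-KO replicate 3 (-0.41, adjusted P 0.0551 by edgeR), and the other losses were in Atrx, Tnnt3 and Trpm5. The counts of members called ran from 3 to 4 lower and from 4 to 5 higher over all alternatives; the low of 4 came from the stricter filter, which removes Igf2. The difference between class medians ran from -0.77 to -0.63 over alternatives that did not add the other imprinted genes. It was not recomputed with those genes, whose own medians were -0.05 (maternally expressed) and 0.04 (paternally expressed).

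The median of the paternally expressed genes was 0.47 with library totals alone, 0.41 with the stricter filter, 0.40 with Grb10 among them, and 0.36 to 0.48 when each library was left out. Pooled with the 28 other tested paternally expressed imprinted genes, whose own median was 0.04, it was 0.07. That alternative was added after the data were seen. Other imprinted genes called higher numbered 5 with DESeq2, 12 with library totals alone and 4 to 7 when each library was left out, the 4 without Fmr1-KO replicate 3. The log2 ratio of Mirg to Meg3 ran from -0.04 without WT replicate 3, a reversed sign, to 0.20 without WT replicate 2; leaving out libraries for the ratios was also added after the data were seen.

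Over all tested genes, same-numbered libraries did not deviate together (correlations -0.0289, 0.0323 and -0.0147), which cannot exclude pairing in part of the genes. In both genotypes the pairs with replicate 2 differed most (chi-square per degree of freedom 2.93 to 3.73, beside 2.28 and 2.19 for replicates 1 and 3). In the fit with the number as a block, the edgeR adjusted P of Atrx fell from 0.0132 to 5.38e-07. That of Dlk1 rose from 0.000117 to 0.000364. With the number as a replicate block, 3 members were lower and 5 higher, and 13 other imprinted genes were lower and 9 higher. Alleles, isoforms, methylation and mature microRNAs were not measured.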
